A study of Mus musculus with 8 samples.

Results

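The genes of DNA replication and S phase were examined in induced regulatory T cells (iTregs) from control and *Tdrd3* knockout mice, as a set of 43 genes chosen by name. The set holds the subunits of the replicative helicase and of the machinery that loads and starts it, the sliding clamp and its loader, the replicative polymerases, the proteins that bind single-stranded DNA and join Okazaki fragments, the enzymes of deoxynucleotide supply, and the cyclin E and E2F genes of the G1/S transition. All 43 names were found among the 11911 protein-coding genes listed in the deposited table, and all 43 were among the 11317 genes with enough counts to be tested. The rule takes members by name and uses no measured value, but the list was chosen with earlier results of these data known.

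RNA-seq had been done on rRNA-depleted RNA in 8 libraries, 4 from Foxp3YFP-Cre control mice (WT in the labels, called controls 1 to 4 here) and 4 from Tdrd3fl/fl/Foxp3YFP-Cre mice (TDRD3 knockout in the labels, called knockouts 1 to 4). Naïve CD4+ T cells from spleen had been cultured for 36 h with TGF-β and with antibodies to CD3, CD28, IL-4 and IFNγ, and RNA was taken from the harvested cells of both genotypes in the same way. The study compared the genotypes to learn how *Tdrd3*, which encodes a Tudor domain protein that binds methylated arginine, affects gene expression in differentiating iTregs. Both genotypes carry Cre driven from the *Foxp3* locus, so deletion of the floxed gene is expected in cells that have begun to transcribe *Foxp3*. Which cells had lost the gene was not tested here. The methods name no sorting of *Foxp3*-expressing cells before RNA was isolated. Ages and sexes of the animals are not given in the sources used here.

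T cells that receive antigen receptor and costimulatory signals leave quiescence and enter the cell cycle. In late G1, the origin recognition complex, Cdc6 and Cdt1 load the MCM helicase onto origins, and Cdc45 and GINS then turn the loaded ring into an active helicase. Polymerase alpha with primase starts each strand, RFC loads the PCNA clamp, polymerases delta and epsilon extend the strands, and Fen1 and Lig1 finish the lagging strand. Most of these genes are known targets of E2F transcription factors, which cyclin E and its kinase release from the retinoblastoma proteins.

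The E2F motif shows what many of these genes share in sequence. The RefSeq promoter table of build GRCm38.p6 holds windows of 300 bases, from 250 bases before to 50 after a start site, and 35 of the 43 members were matched in it with 41 windows. *Rfc2*, *Gins1*, *Mcm4*, *Gins4*, *Ccne2*, *Prim2*, *Pole* and *Gins2* were not matched. The letters TTTCCCGC, TTTCGCGC, TTTGCCGC and TTTGGCGC were searched on both strands, and a form on one strand can overlap a form on the other through the shared GCGC. At least 1 match was found in 15 of the 41 member windows (36.6%), against 744 of 32851 windows of all genes (2.26%) and 477 of 11434 windows of tested genes (4.17%). The letters CCAAT, searched on both strands, stood in 56.1% of member windows, 37.4% of all windows and 38.2% of windows of tested genes. The cell cycle homology letters TTTGAA and TTTAAA, also searched on both strands, stood in 24.4% of member windows, 27.6% of all windows and 19.1% of windows of tested genes.

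The windows of 6 members whose library values are given further on held an E2F match, and 30 bases around 1 match of each are shown on the strand of the gene, 5′ to 3′, with the match in capitals. They are shown because their genes sit at different steps of replication and carry the same short motif in either orientation. *Mcm6* (chr1:128359797-128359826, minus strand, match from 110 bases before the start site), *Cdt1* (chr8:122568035-122568064, plus, from base 33), *Pold1* (chr7:44548766-44548795, minus, from base 40), *Pold3* (chr7:100121467-100121496, minus, from base 18), *Lig1* (chr7:13278841-13278870, plus, from base 27) and *E2f2* (chr4:136172294-136172323, plus, from base 40) are given in GRCm38.p6 coordinates, with the start site counted as base 1.
Mcm6: tggcgtatgctTTTGGCGCgaaaagtgcgt
Cdt1: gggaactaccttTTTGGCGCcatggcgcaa
Pold1: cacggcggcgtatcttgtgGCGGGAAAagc
Pold3: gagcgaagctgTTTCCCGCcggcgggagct
Lig1: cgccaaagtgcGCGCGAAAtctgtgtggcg
E2f2: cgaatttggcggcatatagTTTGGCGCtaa

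The *Mcm6* window held 3 matches, and the capitals above overlap a match on the other strand. The *Rpa2* and *Mcm10* windows were among the member windows that held none, which says only that these letters are not in those windows. A further set of windows, shown because their genes recognize or license origins or load the clamp, carried the motif before the start site. The *Rfc3* window also held a match in the other orientation from base 1, which lies within the bases shown and is not in capitals. *Orc1* (chr4:108579416-108579445, plus, from 27 bases before the start site), *Cdc6* (chr11:98908002-98908031, plus, from 138 bases before it) and *Rfc3* (chr5:151651200-151651229, minus, from 10 bases before it) are again in GRCm38.p6.
Orc1: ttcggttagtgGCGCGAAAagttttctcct
Cdc6: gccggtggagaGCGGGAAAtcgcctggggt
Rfc3: acgtcgcacgcTTTCGCGCtcgcgggaaaa

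Library totals over the listed genes ranged from 13258239 to 16001676 estimated counts, without a difference between genotypes that passed a test (p = 0.743, exact permutation of log2 totals, two-sided). The targeted gene was a weak check of the labels. *Tdrd3* had 18.8, 15.1, 9.95 and 17.7 normalized CPM (counts scaled to the same total in each library) in controls 1 to 4 and 13.7, 10.7, 12.9 and 11.1 in knockouts 1 to 4. The library labelled control 3 was thus below every knockout, and the adjusted p of *Tdrd3* was 0.496 (edgeR). *Foxp3* averaged 110 ± 12.5 CPM in controls and 88.4 ± 13.3 in knockouts (SD, n = 4 each, edgeR adjusted p = 0.152). Control 3 had 107 CPM of *Foxp3*, above the 77.2 to 105 of the knockouts, whereas control 4 had 93.8. In *Tmem254*, the tested gene of smallest p, every control lay above every knockout (log2 fold change −1.514, edgeR adjusted p = 8.635e-10). *Tmem254* was named after its values were seen. The summed level of the 7 CD4+ T cell markers was 2760 to 2920 CPM in controls and 2590 to 2720 in knockouts, and that of the 6 iTreg markers was 3580 to 3720 and 3360 to 3480, so the genotypes did not overlap in either sum. The most abundant gene of each list did not overlap either, *Thy1* with 882 to 1030 CPM in controls and 760 to 880 in knockouts and *Il2ra* with 2180 to 2370 and 2030 to 2170, whereas every other gene of the 2 lists overlapped between genotypes. Of other cell types, the 2 CD8 T cell markers summed to 7.72 to 21.8 CPM in controls and 6.68 to 8.35 in knockouts, with the highest sum in control 3, where *Cd8a* had 11.3 CPM against 0.436 to 1.37 in the other 7 libraries. *Cd74*, an antigen presentation gene, had 54.3 to 63.2 CPM in controls and 56.8 to 63.3 in knockouts, and the B cell receptor genes *Cd79a* and *Cd79b* had at most 0.921 and 2.03 CPM in any library. The listed markers of NK cells (1 of 4), myeloid cells (2 of 8) and erythroid cells (1 of 6) summed to at most 3.12 CPM in any library. The part of these differences in the values of the replication genes was not tested.

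No replication gene passed the test between genotypes. Of the 43 members, 0 had an adjusted p under 0.05 by edgeR (quasi-likelihood F-test, Benjamini-Hochberg), where 30 of the 11317 tested genes (0.265%) passed, and the smallest adjusted p of a member was 0.30, for *E2f2*. At an unadjusted p under 0.05, 2 members were lower in knockouts, *E2f2* and *Rpa2*, which is 4.65% of the members beside 4.91% of all tested genes. At the same threshold 0 members were higher, beside 4.38% of all tested genes. DESeq2 also called 0 members after adjustment, where it called 81 of all genes, and at an unadjusted p under 0.05 it had 1 member lower and 0 higher, where 511 and 426 of all genes were. With library size as the only scaling, *Orc6* passed as well, so that 2 members were lower and 1 higher, beside 550 and 497 of all genes. Without control 3, 1 member was lower, *E2f2*, and 1 higher, *Orc6*, beside 556 and 563 of all genes. A single member, *Mcm10*, had no overlap between genotypes, where 553 of all tested genes (4.89%) had none.

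The sizes of change were small and were bounded closely. The fitted log2 fold changes, knockout over control, ran from −0.17 for *E2f2* to 0.12 for *Orc6*, with 25 below 0 and 18 above. Their median was −0.019, and the median over all tested genes was 0.0013. Each member's own 95% interval lay within 1.3-fold in either direction for all 43 members, within 1.2-fold for 42 of them (*E2f2* being the exception) and within 1.1-fold for 21. The lowest bound of any interval was −0.29 and the highest 0.25 on the log2 scale. These intervals hold gene by gene and are not simultaneous, and they leave room for smaller differences in either direction. Without control 3, whose *Tdrd3* level lay below that of every knockout, the median over the members was −0.013, and all 43 intervals stayed within 1.3-fold. In bulk RNA of this kind, fewer cells in S phase and less RNA per cell cannot be told apart.

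**Figure D1:**
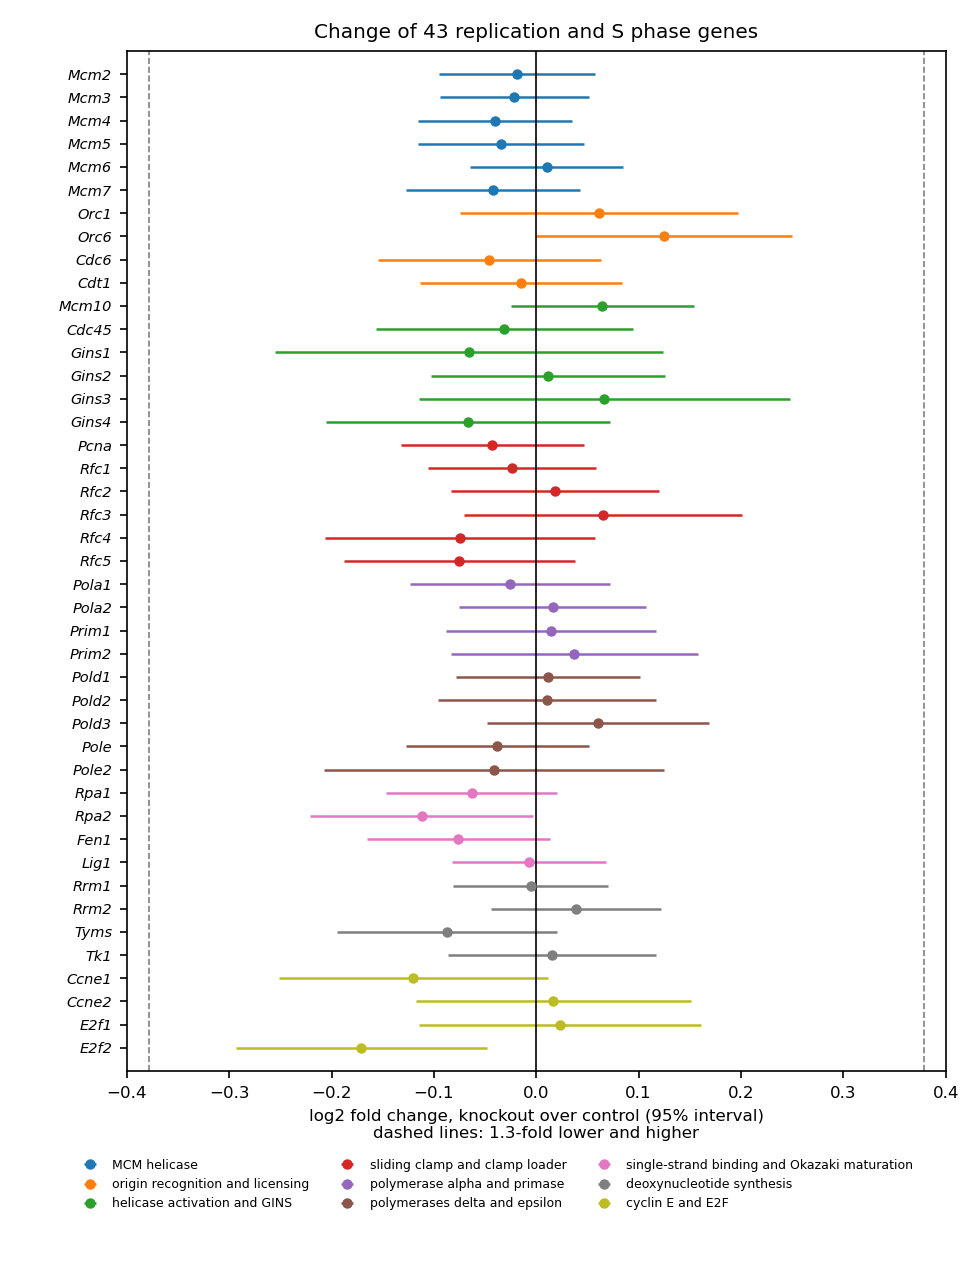
Log2 fold change of each of the 43 replication and S phase genes, knockout over control (point), with its 95% interval (line) from edgeR's quasi-likelihood fit of 4 libraries per genotype, colored by role. All 43 intervals stay inside the dashed lines at 1.3-fold lower and higher, and those of *E2f2* and *Rpa2* do not reach 0.

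The members were well expressed. Their estimated counts ranged from 257 to 9516 per library, far above the 3 counts, or 0.188 to 0.225 CPM, taken as the least a library can show. Per kilobase of exon, all 43 were above the median level of the tested genes, at percentiles from 55.7 to 99.2. The clamp gene *Pcna* was highest with 208 CPM per kb, followed by *Rrm2* with 109 and *Mcm6* with 101, and the polymerase epsilon subunit gene *Pole2* was lowest with 7.02. *Rrm2* and *Mcm6* are neighbours in this order that sit close together, whereas *Pcna* lay well above both in the same libraries. The highest library of a member was 1.05 to 1.33 times its lowest. The median SD of log2 CPM over the 8 libraries was 0.0647, against 0.108 over all tested genes. The median level was 110 CPM for members and 37.5 for all tested genes, and the part of level in the SD was not tested. The small SD was not particular to the members: it was 0.0711 over the 106 other cell cycle genes described below and 0.0577 over the G2/M genes among them.

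**Figure D2:**
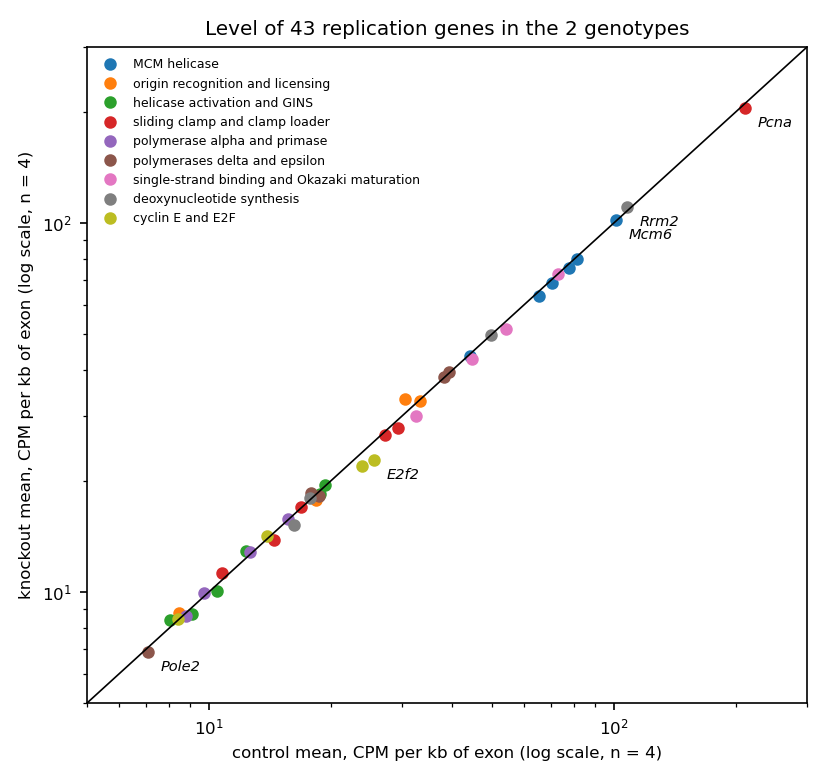
Mean level of each member in controls (horizontal) and knockouts (vertical), in CPM per kb of exon on log axes, with the line of equal levels, colored by role (n = 4 libraries per genotype). The points run along the line from *Pole2* at 7.02 to *Pcna* at 208 CPM per kb.

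The MCM helicase genes encode the 6 subunits of the ring that unwinds DNA at the fork. Of these, 5 were fitted lower in knockouts and 1 higher, with log2 fold changes between −0.04 and 0.01 and a median of −0.03, and 0 of the 6 passed at an unadjusted p under 0.05. As a group they had the highest median level among the roles, 73.2 CPM per kb, with a range from 43.8 to 101. *Mcm6*, the subunit with most RNA per kb, had 540, 535, 555 and 566 CPM in controls 1 to 4 and 562, 550, 542 and 557 in knockouts 1 to 4. The knockouts all lay inside the range of the controls, and the log2 fold change was 0.01 with an interval from −0.06 to 0.08. *Mcm4*, the subunit of smallest p, had 418, 420, 423 and 403 CPM in controls and 405, 412, 405 and 396 in knockouts. Its highest values were 3 controls, but control 4 fell among the knockouts, and the log2 fold change of −0.04 (SE 0.036) had an edgeR adjusted p of 0.834. The other 4 subunits had log2 fold changes from −0.04 for *Mcm7* to −0.02 for *Mcm2*. The exons of *Mcm7* overlap *Mir25* and *Mir93* on the same strand and *Ap4m1* and *Cops6* on the other strand.

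The origin genes went in both directions. *Orc1* and *Orc6* encode subunits of the origin recognition complex, and *Cdc6* and *Cdt1* encode the factors that load MCM there. *Orc6* had 81.0, 72.3, 84.1 and 70.3 CPM in controls 1 to 4 and 85.5, 83.9, 79.6 and 86.5 in knockouts 1 to 4. Controls 2 and 4 lay below all other libraries, whereas controls 1 and 3 fell within the knockout range. The means were 76.9 ± 6.68 and 83.9 ± 3.04 CPM (SD, n = 4 each), the largest fitted increase among the members. Its log2 fold change was 0.12 with an interval from −0.00049 to 0.25. The edgeR adjusted p was 0.541 (0.0508 unadjusted), and the two-sided exact permutation test gave p = 0.171. Without control 3 the log2 fold change of *Orc6* was 0.17, with an edgeR adjusted p of 0.281 (0.00959 unadjusted). It was 0.0962 without control 2 and 0.0825 without control 4, with unadjusted edgeR p of 0.15 and 0.185. *Orc6* (ENSMUSG00000031697; GRCm39 chromosome 8, 86026261 to 86034908, plus strand) shares exon sequence with *Vps35* on the other strand, and the strand used in counting is not stated.

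*Cdt1*, the origin gene of highest level per kb, had 109, 113, 106 and 105 CPM in controls and 108, 113, 106 and 103 in knockouts. The genotypes covered nearly the same range, with a log2 fold change of −0.01 and an interval from −0.11 to 0.08. *Orc1* and *Cdc6* had log2 fold changes of 0.06 and −0.05, and their libraries overlapped too.

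The genes of helicase activation comprise *Mcm10*, *Cdc45* and those of the 4 GINS subunits, whose products join the loaded MCM ring. Of the 6 genes, 3 were fitted lower and 3 higher, from −0.07 to 0.07. *Mcm10*, which acts at the conversion of the helicase to its active form, had 128, 125, 120 and 128 CPM in controls 1 to 4 and 132, 132, 129 and 132 in knockouts 1 to 4. Each knockout lay above each control, by as little as 129 against 128 CPM, and this was the only such member. The log2 fold change was 0.06 with an interval from −0.02 to 0.15. Its adjusted p in edgeR was 0.732, and the two-sided exact permutation test gave p = 0.0286, the smallest that the 70 arrangements of 4 against 4 allow. Without control 3, the lowest library, the log2 fold change was 0.04. *Mcm10* (ENSMUSG00000026669) lies on GRCm39 chromosome 2 from 4994525 to 5017603, minus strand, and no other gene's exons overlap it.

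*Gins2*, the member of this group with the highest level per kb, had 77.5, 84.0, 83.0 and 73.0 CPM in controls and 82.0, 82.1, 78.4 and 77.5 in knockouts. The knockouts lay within the range of the controls, with a log2 fold change of 0.01 and an interval from −0.10 to 0.13. The GINS genes *Gins1* and *Gins3* carried the fewest counts of the set and spread widely. *Gins1* had 24.0 CPM in control 1 against 18.7 to 21.4 in the other 7 libraries, and *Gins3* had 30.4 CPM in knockout 2 and 22.9 in knockout 3, the widest ratio of any member at 1.33. *Gins1* and *Gins3* were named for these extremes after their values were seen.

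The sliding clamp and clamp loader genes had log2 fold changes from −0.08 to 0.06, with 4 below 0 and 2 above. *Pcna*, which encodes the clamp that tethers the polymerases to DNA, had 509, 501, 544 and 473 CPM in controls 1 to 4 and 500, 508, 486 and 475 in knockouts 1 to 4. Control 3 was highest and control 4 lowest, and all 4 knockouts fell between them. The log2 fold change was −0.04 with an interval from −0.13 to 0.05, and without control 3 it was −0.0066. *Rfc5*, a subunit of the loader that opens the clamp, had 99.0, 98.8, 106 and 105 CPM in controls and 96.2, 107, 94.5 and 90.6 in knockouts. Knockouts 1, 3 and 4 lay below every control, but knockout 2 was the highest library of all. Its log2 fold change was −0.08 (SE 0.054, edgeR adjusted p = 0.768), and its exons overlap *Wsb2* on the other strand.

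Polymerase alpha and primase, which lay down the RNA-DNA primer of each strand, had 1 gene fitted lower and 3 higher. The log2 fold changes ran only from −0.03 to 0.04. *Prim2*, which encodes the large primase subunit, had 59.1, 62.6, 61.3 and 65.3 CPM in controls and 63.4, 65.5, 58.9 and 66.7 in knockouts. Knockout 3 was the lowest library and knockout 4 the highest, so both ends of the range were knockouts. *Prim1*, which encodes the catalytic subunit, had 86.7, 88.9, 94.4 and 85.9 CPM in controls and 89.9, 90.5, 86.7 and 92.2 in knockouts. Here the controls held both ends of the range, and the log2 fold change was 0.01 with an interval from −0.09 to 0.12.

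Polymerases delta and epsilon, which copy most of the lagging and the leading strand, gave 2 genes fitted lower and 3 higher. *Pold1*, the catalytic subunit of polymerase delta, had 234, 245, 223 and 230 CPM in controls 1 to 4 and 236, 231, 248 and 225 in knockouts 1 to 4. The libraries of the genotypes were interleaved over the whole range, and the log2 fold change was 0.01 with an interval from −0.08 to 0.10. *Pold3*, an accessory subunit of the same enzyme, had 102, 98.7, 97.3 and 108 CPM in controls and 115, 105, 101 and 103 in knockouts. Knockout 1 was highest and controls 2 and 3 lowest, while control 4 lay above 3 of the knockouts. The log2 fold change was 0.06 (SE 0.0518, edgeR adjusted p = 0.824). The polymerase epsilon genes *Pole* and *Pole2* both had a log2 fold change of −0.04, with intervals from −0.13 to 0.05 and from −0.21 to 0.12.

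The genes of single-strand DNA binding and Okazaki fragment maturation were the only role in which every member was fitted in the same direction, with 4 of 4 lower in knockouts. Their median log2 fold change was −0.07, and 1 of the 4 passed at an unadjusted p under 0.05, where 4.91% of all tested genes were lower. The roles are small and several were compared, so the shared direction is a description only. *Rpa2*, the middle subunit of the protein that coats single-stranded DNA, had 94.8, 104, 102 and 93.6 CPM in controls 1 to 4 and 90.1, 95.5, 85.7 and 93.4 in knockouts 1 to 4. Controls 2 and 3 were highest and knockout 3 lowest, and knockout 2 lay above controls 1 and 4. The means were 98.6 ± 5.13 and 91.2 ± 4.25 CPM (SD, n = 4 each). The log2 fold change was −0.11 with an interval from −0.22 to −0.0027. In edgeR the p was 0.0451 before and 0.516 after adjustment, and the two-sided exact permutation test gave p = 0.114. Without control 3 the log2 fold change of *Rpa2* was −0.09 and the unadjusted p of the same edgeR test 0.108. *Rpa2* (ENSMUSG00000028884) lies on GRCm39 chromosome 4 from 132495643 to 132506064, plus strand.

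*Lig1*, the ligase that seals Okazaki fragments, had 338, 332, 325 and 321 CPM in controls and 326, 328, 327 and 330 in knockouts. The 4 knockouts lay inside the control range and differed among themselves by only a few CPM, with a log2 fold change of −0.0071 and an interval from −0.08 to 0.07. *Rpa1* had 354 ± 8.57 CPM in controls and 338 ± 14.0 in knockouts, and *Fen1*, the flap endonuclease, had 176 ± 4.56 and 167 ± 6.93 (SD, n = 4 each). In both genes the genotypes overlapped, and their log2 fold changes were −0.06 and −0.08, with intervals that included 0.

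Deoxynucleotide synthesis gave 2 genes fitted lower and 2 higher. *Rrm2*, the regulated small subunit of ribonucleotide reductase, had 351, 349, 367 and 365 CPM in controls 1 to 4 and 363, 382, 349 and 376 in knockouts 1 to 4. Knockouts 2 and 4 were highest, but knockout 3 was level with control 2, the lowest library. The log2 fold change was 0.04 with an interval from −0.04 to 0.12. *Tyms*, which makes thymidylate, had 104, 98.9, 108 and 109 CPM in controls and 104, 96.9, 92.1 and 102 in knockouts. Controls 3 and 4 were highest and knockouts 2 and 3 lowest, with overlap among the other 4 libraries. The log2 fold change of −0.09 (SE 0.0513) had an edgeR adjusted p of 0.676. *Rrm1* and *Tk1* had log2 fold changes of −0.0055 and 0.02.

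The cyclin E and E2F genes of the G1/S transition held the member with the smallest p. *E2f2* encodes a transcription factor of the E2F family. It had 137, 140, 119 and 116 CPM in controls 1 to 4 and 113, 118, 115 and 109 in knockouts 1 to 4. Controls 1 and 2 stood above every other library, whereas controls 3 and 4 lay close to the knockouts and knockout 2 was above control 4. The means were 128 ± 12.5 and 114 ± 3.76 CPM (SD, n = 4 each), and the log2 fold change was −0.17 with an interval from −0.29 to −0.05. In edgeR the p was 0.00895 before and 0.30 after adjustment, and the two-sided exact permutation test gave p = 0.0571. Without control 3 the log2 fold change of *E2f2* was −0.205 (edgeR adjusted p = 0.199). It was −0.135 without control 1 (edgeR adjusted p = 0.66) and −0.126 without control 2 (edgeR adjusted p = 0.594). *E2f2* (ENSMUSG00000018983) lies on GRCm39 chromosome 4 from 135899705 to 135923369, plus strand, and no other gene's exons overlap it.

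The other members of this group did not follow one direction. *Ccne1* had 79.3, 84.4, 96.2 and 87.4 CPM in controls and 73.0, 84.5, 83.9 and 78.1 in knockouts, and was named after its values were seen because its fitted decrease was the next after that of *E2f2*. Control 3 was its highest library and knockout 1 its lowest, with overlap between them, and the log2 fold change of −0.12 had an edgeR adjusted p of 0.596. *Ccne2* and *E2f1* had log2 fold changes of 0.02 each, and the interval of *E2f1* ran from −0.11 to 0.16.

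**Figure D3:**
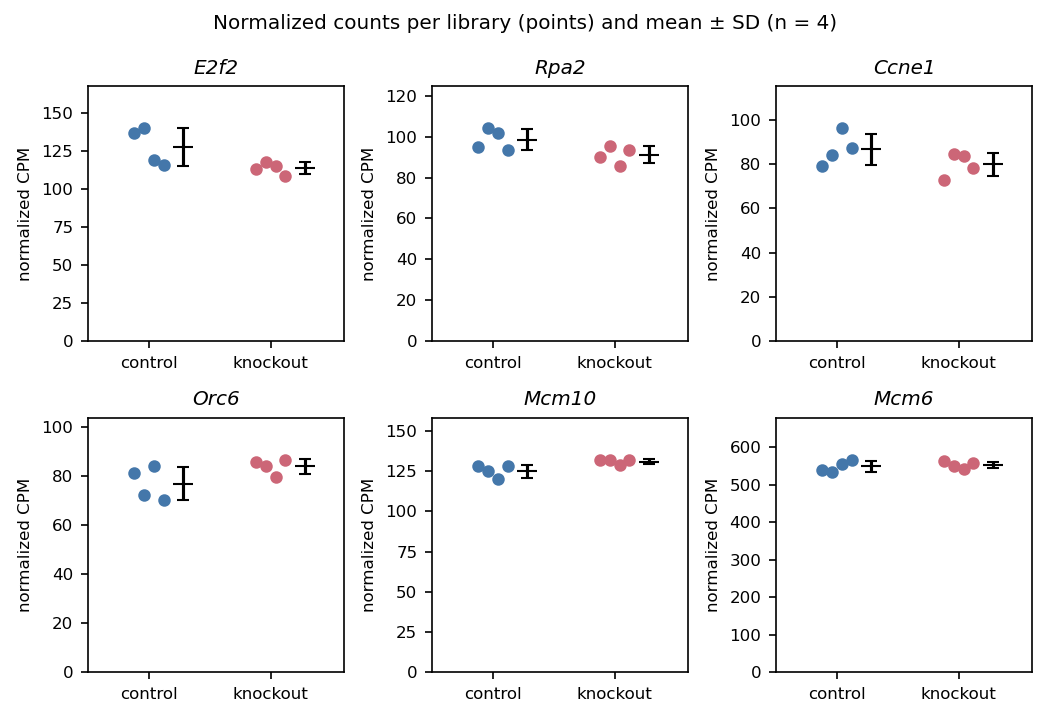
Normalized CPM in each library (points, in label order from left to right) with the mean and SD (bars, n = 4) for 6 members, on axes that start at 0: *E2f2*, *Rpa2*, *Ccne1*, *Orc6*, *Mcm10* and *Mcm6*. Only in *Mcm10* do the genotypes not overlap, and controls 1 and 2 stand above the other libraries in *E2f2*.

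A mean score over all 43 members gave no separation of the genotypes. The score is the average of each member's log2 CPM minus that gene's mean over the 8 libraries, and it is a description with no test. It was 0.000, 0.001, 0.035 and −0.004 in controls 1 to 4 and −0.009, 0.022, −0.027 and −0.018 in knockouts 1 to 4. Control 3 was highest, knockout 2 came next, and knockout 3 was lowest. The means were 0.008 ± 0.018 and −0.008 ± 0.021 (SD, n = 4 each), a difference of −0.016 on the log2 scale. The extremes were spread unevenly, and every library was the highest for some members and the lowest for others. Control 3 was the highest library for 12 members. Knockout 4 was the lowest for 11, control 4 for 9 and knockout 3 for 8.

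By role, the score separated the genotypes only for single-strand binding and Okazaki maturation. There the controls had 0.015, 0.055, 0.066 and −0.007 and the knockouts −0.052, −0.009, −0.050 and −0.019, so that control 4 lay just above knockout 2. This group was singled out after its values were seen and 9 roles were compared. The scores of the other 8 roles overlapped between genotypes, including the MCM helicase (−0.003 to 0.029 in controls and −0.039 to 0.010 in knockouts).

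**Figure D4:**
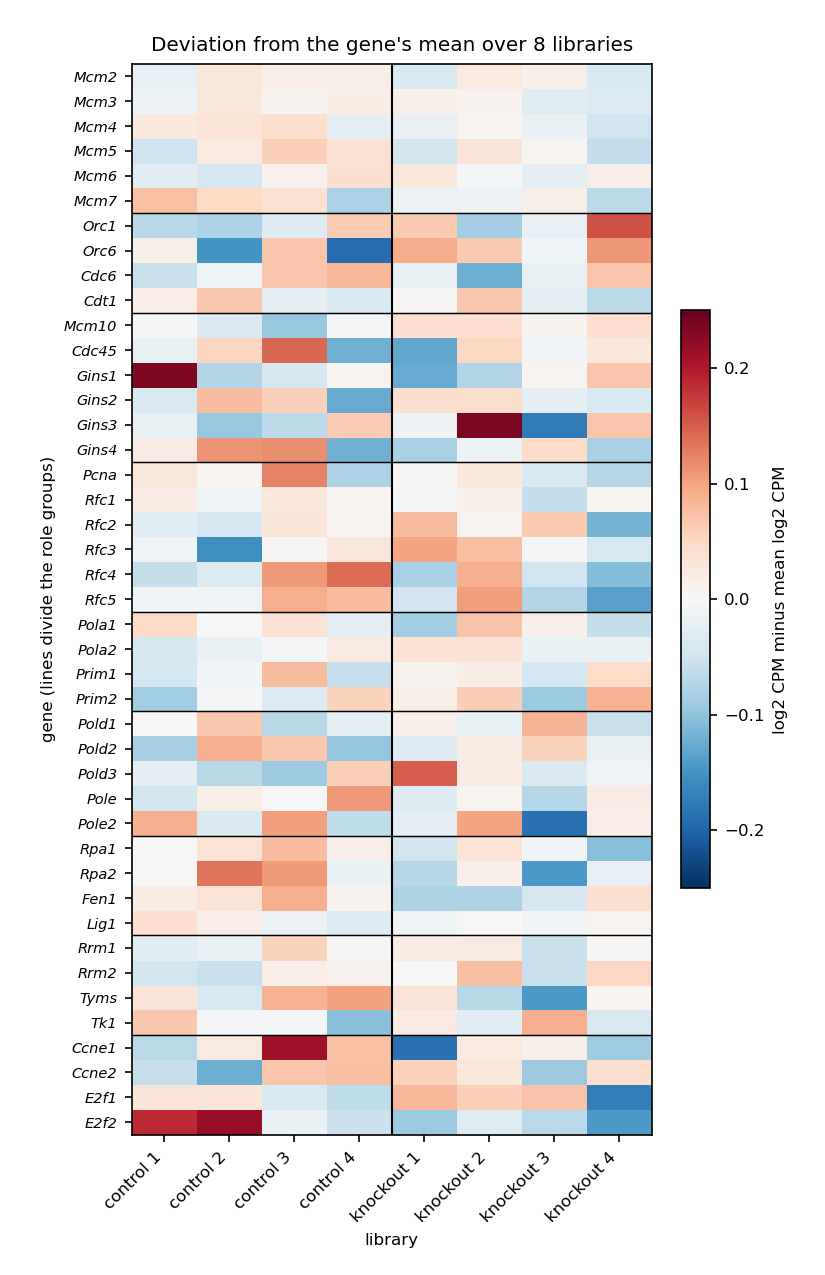
Log2 CPM of each member in each library minus the mean of that gene over the 8 libraries (color, red above and blue below), with genes in rows grouped by role and libraries in columns, controls left of the vertical line. Both genotypes hold red and blue columns: control 3 is the highest library for 12 members and knockout 4 the lowest for 11.

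Other genes of replication and the cell cycle, 106 in 6 lists, were read in the same way, and all 106 were tested. None passed after adjustment in edgeR (smallest adjusted p 0.208), and at an unadjusted p under 0.05 there were 7 lower and 2 higher, 8.49% of them beside 9.3% of all tested genes in either direction. Their median log2 fold change was −0.01, close to that of the 43 members. The genotypes did not overlap in 3 of the 106, where they did not in 4.89% of all tested genes. The 2 of these with the smallest p are given for their values alone. *Ccnd2*, the D-type cyclin that acts upstream of cyclin E, had 927, 917, 935 and 967 CPM in controls and 866, 878, 860 and 885 in knockouts, a log2 fold change of −0.10 with an edgeR adjusted p of 0.267. *Rnaseh2b*, a subunit of the nuclease that removes RNA from RNA-DNA hybrids, had 42.0, 40.2, 43.7 and 42.8 CPM in controls and 50.6, 46.2, 45.2 and 48.9 in knockouts, a log2 fold change of 0.18 with an edgeR adjusted p of 0.303.

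Among the 14 other licensing and firing factors the only gene under an unadjusted p of 0.05 was *Donson* (log2 fold change −0.16), and among the 10 other nucleotide supply enzymes it was *Samhd1* (−0.10), the dNTP hydrolase. Of the 10 replication-coupled chromatin factors the histone chaperone gene *Asf1b* (−0.13) and the histone mRNA binding protein gene *Slbp* (−0.09) were lower at that threshold. The 25 G1/S regulators also held *Tfdp2* (−0.16), an E2F partner, and *Cdk6* (0.12). The 30 genes of G2/M and mitosis, which follow S phase, had a median log2 fold change of −0.01 with 1 gene at that threshold, *Cdc25b* (−0.20). Their mean score was 0.009 ± 0.012 in controls and −0.009 ± 0.020 in knockouts (SD, n = 4 each), again with overlap. The difference between this list and the 43 members was not tested.

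**Figure D5:**
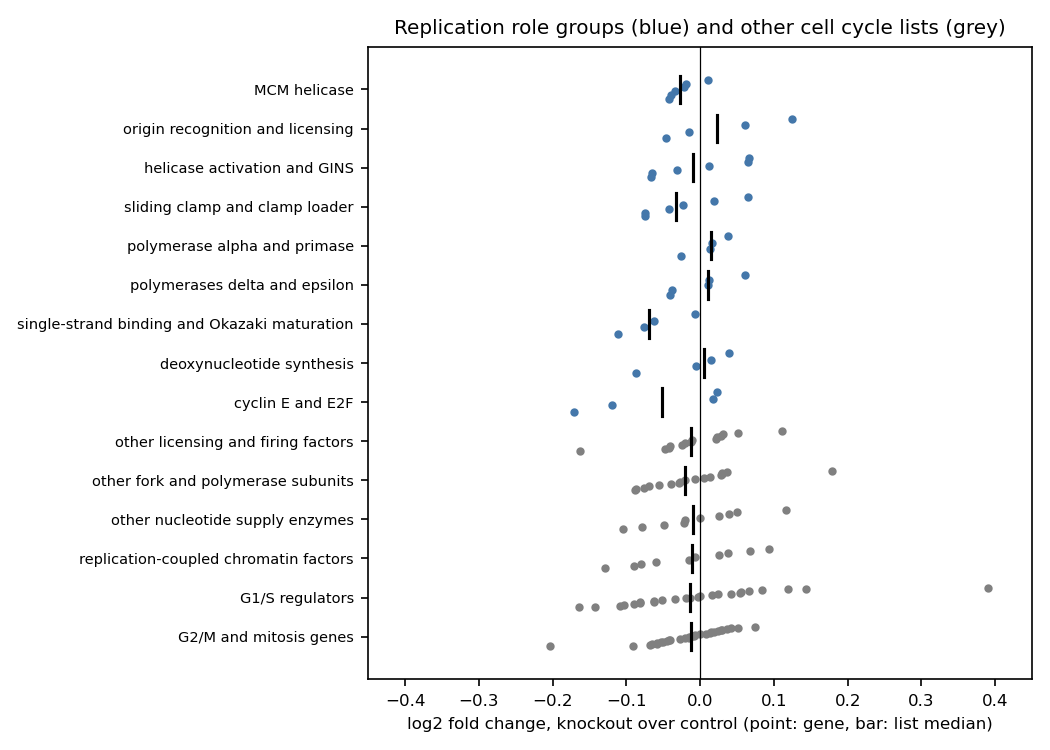
Log2 fold change, knockout over control, of each gene (point) and the list median (bar), for the 9 roles of the 43 members (blue) and the 6 other cell cycle lists (grey), n = 4 libraries per genotype. Every list median lies between −0.07 and 0.02, and the point far to the right among the G1/S regulators is *Ccnd1*, named after its value was seen, which had at most 22 counts in any library.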

How the data were processed

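Total RNA from 4 control and 4 knockout cultures was sequenced after depletion of ribosomal RNA. Per the submitters' processing notes and the methods, the authors aligned reads to GRCm39 with STAR 2.7.8a and quantified genes in Partek with an expectation-maximization step that divides shared reads. The deposited values are estimated counts per gene, filtered and not normalized, of which 43.0% were not whole. The annotation version and the strand used in counting are not given in the sources used here. The methods give 3 replicates per group and the labels 4, and all 8 libraries were used. Columns were matched to samples by the titles in the labels.

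Estimated counts were rounded to whole numbers. edgeR 4.0.16 (R 4.3.3) was used for filterByExpr (minimum count 10, which left out 594 of 11911 genes), TMM normalization (factors 0.993 to 1.00), and the two-sided quasi-likelihood F-test of genotype with Benjamini-Hochberg adjustment over 11317 genes. Standard errors and 95% intervals come from the same fit. Normalized counts are CPM of the tested genes. Exact permutation tests used log2(CPM + 0.5) over 70 arrangements, and all p-values measure the spread between these libraries. Libraries of a genotype differed by more than sampling noise (chi-square per degree of freedom 2.59 to 6.29), so none was a mere copy of another library. The closest were controls 1 and 2 (2.7) and knockouts 1 and 4 (2.59). This check cannot show whether any libraries came from the same animal. Floors of 3 counts cover counting error only. Levels per kb used the union of GENCODE exons on GRCm39. Chromosome positions are those of the deposited table, whose end lies 1 base past the annotated one. Promoter windows are from RefSeq on GRCm38.p6 and were not mixed with GRCm39 positions. The steps were tested on simulated data.

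The 43 members, their roles and the other lists were chosen with earlier results of these data known. Values in each library are given for members with an unadjusted p under 0.05 and, in each role, for the member of smallest p and the member of highest level per kb. In the other lists, genes were named from the 3 of smallest p, except *Ccnd1* and the cell type markers, which were named after their values were seen. Alternatives were other filters and scalings, DESeq2 1.42.0, limma 3.58.1 voom with quality weights, a replicate block, and leaving out each library. The summed B cell marker list is not reported here.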

Additional observations from a re-analysis of the deposited data

Results flagged for a closer look

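Each genotype's 4 libraries were examined for 1 library far from the other 3, in 88 groups of values (each member in each genotype, and the mean score). A gap this wide relative to the range arises by chance in about 1 in 20 such groups, and 3 were found here. *E2f1* in knockouts had 43.1 CPM in knockout 4, against 50.6 to 51.4 in the other knockouts. *Mcm10* in knockouts had 129 CPM in knockout 3, against 132 in each of the other knockouts, and this same value is the one nearest to the controls. The mean score over the 43 members was 0.035 in control 3, against −0.0043 to 0.0009 in the other controls. Control 3 is also the library whose *Tdrd3* level lies below every knockout and in which *Cd8a* was highest, and the part of either in its score was not tested.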

How the results depend on the processing

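No member passed at an adjusted p under 0.05 in any of the 15 alternatives, and the smallest adjusted p of a member was 0.0859, for *E2f2* without control 4. The median log2 fold change of the members stayed below 0, from −0.0295 without knockout 2 to −0.0107 without knockout 1, and the members' 95% intervals reached at most −0.335 and 0.309. At an unadjusted p under 0.05 the members lower in knockouts went from 2 to 1 in DESeq2 and in voom, where *Rpa2* was lost, stayed at 2 with the block, where *Rpa2* was lost and *Ccne1* passed (as it did without control 1 or knockout 2), and ranged from 1 to 4 when single libraries were left out (4 without knockout 2, and 1 without control 3, knockout 1 or knockout 3). Over all tested genes, those lower numbered 556 in the main fit, 511 in DESeq2, 693 in voom and 513 with the block. They numbered 660 without knockout 2, 556 without control 3, 375 without knockout 1 and 561 without knockout 3. Members higher went from 0 to 1, *Orc6*, with at least 10 counts in every library, with library size only and in voom, and were 0 to 1 without single libraries. Of all tested genes, 478, 497 and 648 were higher in those fits, beside 496 in the main fit. *E2f2* was below that threshold in every alternative. Of 255 log2 fold changes of the 17 members named by the rule (*Ccne1* is not among them), 244 kept their sign and side of the threshold. The other 11 changed sign, each without 1 library, in members close to 0: *Mcm6* (−0.0021 to 0.024 over the libraries left out), *Cdt1* (−0.042 to 0.0053), *Gins2* (−0.028 to 0.040), *Prim1* (−0.0037 to 0.044), *Pold1* (−0.015 to 0.036) and *Lig1* (−0.020 to 0.0048).

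Over all tested genes the 30 adjusted calls were less stable. DESeq2 gave 81, voom 95 and the fit with the replicate number as a block 87. Leaving out 1 library gave 6 (without knockout 1) to 162 (without knockout 2), with 90 without control 4 and 7 to 19 without each of the others. Genes higher at an unadjusted p under 0.05 numbered 496, with 322 (without knockout 1) to 574 (without control 4) over the libraries left out and 648 in voom. Among the 106 other cell cycle genes, over the libraries left out, adjusted calls were 0 to 1 (1 without control 4), lower ones 3 to 8 (3 without knockout 4) and higher ones 1 to 4 (4 without control 4), and voom gave 9 lower. The cause of these shifts was not tested. Whether the replicate numbers pair the samples is not settled here. Same-numbered libraries had correlations of −0.0458, 0.00404, −0.0417 and 0.0691 between their deviations from the genotype means. Such values over all tested genes cannot exclude a pairing that acts on few genes. With the block, 0 members passed after adjustment.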
